A study of Mus musculus with 4 samples.

Results

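The genes described here belong to the families of enzymes that add methyl groups to histone lysines or take them off, other than those of H3K27, and include 3 whose activity on histone lysines is absent or disputed (*Smyd3*, *Kmt2e* and *Jmjd6*). They are 37 genes, listed by name, of the 19339 in each file. None of them passed a test between TCRβ+CD8αα+ intraepithelial lymphocytes (IELs) of control and Kdm6b-deficient mice, and none differed by a log2 value above 1 or below −1. Of all 12009 genes tested, 0 passed, 6.2% were above 1 and 0.441% below −1, and 5993 had a log2 difference below 0. On the values as deposited 26 of the 35 tested had a log2 difference below 0, with a median of −0.14, whereas 31 were above 0, with a median of 0.21, after the libraries were scaled to the T cell genes *Cd3d*, *Cd3e*, *Cd3g* and *Ptprc*, a scaling that moved the median of all genes to 0.36 and put 10358 of all 12009 genes above 0.

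IELs of this kind reside between the epithelial cells of the gut and pair an αβ T cell receptor with the CD8αα homodimer. RNA was measured in small intestinal cells of C57BL/6 mice sorted as CD45+CD4-TCRβ+CD8α+CD8β-. The control group holds 2 libraries of Kdm6bfl/fl mice, which carry loxP-flanked *Kdm6b* alleles without Cre. The Kdm6b-deficient group holds 2 libraries of Kdm6bfl/fl-CD4Cre mice, in which the CD4Cre transgene acts in T cells from the late double-negative thymocyte stage on, so deletion is not limited to IELs and the groups differ in Cre as well. Each library holds RNA pooled from several mice of 1 genotype, and neither age nor sex is given in the sources used here. Both groups have the replicate numbers 1 and 3. With 2 libraries against 2, an exact two-sided permutation test of a single value cannot give a p below 0.333.

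Histone H3 is methylated at several lysines, and each position has its own writers and erasers. Methylation of H3K4 marks promoters and enhancers, methylation of H3K36 and H3K79 lies over transcribed genes, and methylation of H3K9 goes with heterochromatin and silenced genes. The writers are SET domain proteins, except DOT1L, which has a fold of its own. The erasers are the amine oxidases KDM1A and KDM1B and the Jumonji C (JmjC) enzymes, the family to which the deleted KDM6B, an eraser of H3K27 trimethylation, belongs.

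The deleted gene *Kdm6b* (Entrez 216850) lies on chromosome 11 of GRCm38, from 69398508 to 69420367. Its level was 16.5 FPKM in control replicate 1, 16.0 FPKM in control replicate 3, 18.2 FPKM in Kdm6b-deficient replicate 1 and 11.1 FPKM in Kdm6b-deficient replicate 3. FPKM divides the fragments of a gene by its transcript length and by the mapped fragments of the library, and below the value of replicate 1 always precedes that of replicate 3. *Kdm6b* was thus not lower than the controls in 1 library labelled Kdm6b-deficient, and the libraries are named by their labels throughout. *Gzmb* and *Klrd1*, from the list of CD8αα IEL markers, were lower in both libraries so labelled, *Gzmb* with 3378 and 2488 FPKM in the controls and 1515 and 1279 FPKM in the others, and *Klrd1* with 136 and 118 FPKM against 59.6 and 58.7 FPKM. Of the 8 genes on that list, 6 were below both controls in both libraries so labelled, and *Gzma* and *Fasl* overlapped. So were 4 of 8 T cell markers and 18.6% of all genes. *Gzmb* and *Klrd1*, the most negative of the list, were chosen after their values were seen, and neither passed the test over all genes (adjusted p = 0.755 for each, limma). The sources used here do not say which part of the gene is flanked by loxP sites, and FPKM of a whole gene also counts fragments outside that part. *Kdm6a*, the other H3K27 demethylase gene of the family, had 16.3 and 13.1 FPKM in the controls and 15.2 and 13.01 FPKM in the others.

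The libraries also differed in their levels of cell type markers. All 8 T cell markers examined, *Cd3d*, *Cd3e* and *Lck* among them, were highest in control replicate 1 and lowest in Kdm6b-deficient replicate 3. Their geometric mean, relative to control replicate 1, was 0.732 in control replicate 3, 0.781 in Kdm6b-deficient replicate 1 and 0.489 in Kdm6b-deficient replicate 3. That of 22 epithelial markers was 3.28, 2.9 and 6.64 in the same order. The marker *Cd4*, which the sort should have removed, was present at 30.6 and 10.1 FPKM in the controls and 30.5 and 3.17 FPKM in the others, while *Cd8b1* stayed between 0 and 1.64 FPKM and *Cd8a* between 280 and 463 FPKM. Of 6 B cell genes 3 stayed below the filter used here, with *Pax5* at most at 0.1 FPKM, but *Cd79b* was at 28.4 to 33.5 FPKM in every library and *Cd79a* and *Cd22* at up to 3.53 and 3.44 FPKM. Of 7 myeloid and dendritic cell genes tested, 4 were above both controls in both libraries labelled Kdm6b-deficient (18.4% of all genes were) and 1, *Fcer1g*, was below both. *Fcer1g*, at 852 to 1785 FPKM, was highest in control replicate 1 and lowest in Kdm6b-deficient replicate 3, as the T cell markers were. In bulk RNA, fewer cells of a type and less RNA per cell cannot be told apart. One fragment of a 1 kb transcript was estimated to be worth about 0.07 FPKM in every library but Kdm6b-deficient replicate 3, where it was worth about 0.086. By this estimate that library was the shallowest, although it had the fewest genes listed at 0 (1625, where the others had 2773 to 4531).

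Of the 37 genes, 35 reached at least 1 FPKM in at least 2 libraries and were tested, while *Setd7* and *Suv39h2* did not. The log2 difference given for each gene is the mean of log2(FPKM + 1) in the libraries labelled Kdm6b-deficient minus that in the controls, and its standard error (SE), 95% interval and adjusted p come from a limma fit over all 12009 genes that passed the filter. The log scale with 1 added understates the change of genes with few FPKM. Groups are said to lie apart where both libraries of one were above both of the other. Over all 12009 genes, both libraries labelled Kdm6b-deficient were below both controls in 18.6% and above both in 18.4%, and 5993 genes had a log2 difference below 0, shares against which the counts of each group of enzymes are to be read.

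**Figure D1:**
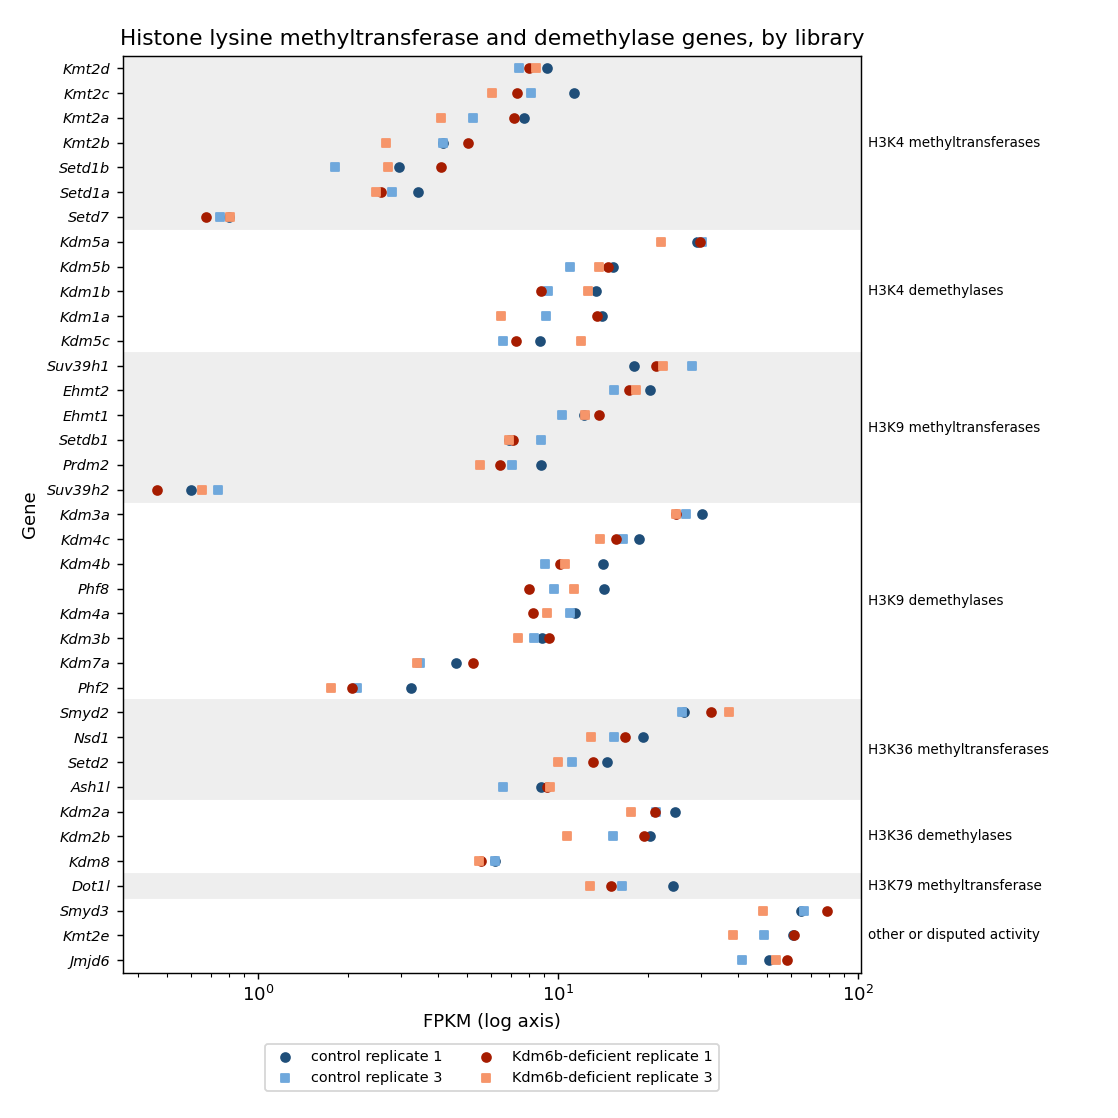
FPKM of the 37 genes (log axis) in each library, grouped by the histone lysine the enzymes act on. Circles are replicates 1 and squares replicates 3, in blue for control and red for Kdm6b-deficient, and mean levels run from 0.612 FPKM for Suv39h2 to 64.5 FPKM for Smyd3.

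The H3K4 methyltransferases of the KMT2 and SETD1 families, the catalytic subunits of the COMPASS complexes, had low transcript levels, the highest mean over the 4 libraries being 8.27 FPKM. *Kmt2d*, which places H3K4 monomethylation at enhancers, was that highest gene, at 9.18 and 7.40 FPKM in the controls and 8.02 and 8.48 FPKM in those labelled Kdm6b-deficient. Its groups overlapped and its log2 difference was 0.00 (SE 0.26, 95% interval −0.66 to 0.66). *Kmt2c*, its closest paralog, had 11.4 and 8.15 FPKM in the controls and 7.31 and 6.02 FPKM in the others. Both libraries labelled Kdm6b-deficient were below both controls, but the log2 difference of −0.48 (SE 0.29, interval −1.21 to 0.26) did not pass the test (adjusted p = 0.759, limma).

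*Setd1a*, the catalytic subunit of a complex that trimethylates H3K4 at promoters, had 3.43 and 2.80 FPKM in the controls and 2.57 and 2.48 FPKM in those labelled Kdm6b-deficient. Its groups did not overlap either, with a log2 difference of −0.22 (SE 0.31, adjusted p = 0.862, limma). Its exons share 3523 bases with *Gm49388*, a gene model on the same strand, so its level is uncertain where reads could be split between the models. The paralog *Setd1b* had the most positive difference of the group, 0.38 (SE 0.36), though its values overlapped, at 2.96 and 1.81 FPKM in the controls and 4.07 and 2.72 FPKM in the others. *Kmt2a* and *Kmt2b*, which form the complexes that bind menin, had log2 differences of −0.20 and −0.13 with overlapping groups. In *Kmt2a*, replicate 3 was below replicate 1 in both groups, at 0.678 times its level in the controls and 0.573 times in the others, a larger gap than that between the groups. *Setd7*, a monomethyltransferase of H3K4 and of many other proteins, stayed below the filter, with 0.80 and 0.75 FPKM in the controls and 0.67 and 0.81 FPKM in the others, and was not tested. Its transcript is long, and these levels were estimated at 68 to 83 fragments.

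The H3K4 demethylases were more abundant than the methyltransferases per unit of length, with means from 8.63 to 27.8 FPKM, and in none of the 5 did the groups lie apart. *Kdm5a*, a JmjC enzyme that removes H3K4 trimethylation, led with 29.1 and 30.2 FPKM in the controls and 29.9 and 22.1 FPKM in those labelled Kdm6b-deficient. Only Kdm6b-deficient replicate 3 was low, and the log2 difference was −0.20 (SE 0.22, interval −0.76 to 0.36). *Kdm5b*, of the same family, differed by 0.12 (SE 0.26).

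*Kdm5c*, the X-linked member of that family, had the lowest mean of the group, at 8.70 and 6.59 FPKM in the controls and 7.27 and 12.0 FPKM in the others, a log2 difference of 0.27 (SE 0.33). It was lowest in control replicate 3 and highest in Kdm6b-deficient replicate 3. Its Y-linked homolog *Kdm5d* had the reverse pattern, with 3.63 and 6.59 FPKM in the controls and 3.86 and 2.21 FPKM in the others. The Y-linked gene *Ddx3y* was likewise highest in control replicate 3 (46.4 FPKM) and lowest in Kdm6b-deficient replicate 3 (12.4 FPKM), and the part of the share of male mice in the values of *Kdm5c* was not tested.

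The amine oxidases of the group, which act on mono- and dimethylated H3K4, varied more between replicates than between groups. *Kdm1a*, encoding LSD1, had 14.1 and 9.14 FPKM in the controls and 13.5 and 6.48 FPKM in the others, with the widest interval of all 35 genes (log2 difference −0.25, interval −1.27 to 0.78). *Kdm1b*, encoding LSD2, had 13.4 and 9.29 FPKM against 8.78 and 12.6 FPKM, so that its replicates moved in opposite directions in the 2 groups.

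Among the H3K9 methyltransferases, 3 of the 5 tested had a log2 difference below 0, and 1 of the 5 after scaling to T cell genes. *Suv39h1*, which trimethylates H3K9 in heterochromatin and has been studied in the silencing of lineage genes in T cells, had the highest mean of them. It had 17.97 and 28.1 FPKM in the controls and 21.2 and 22.5 FPKM in those labelled Kdm6b-deficient, so that both lay between the controls (log2 difference −0.04, SE 0.27). Its paralog *Suv39h2* was listed at 0.60 and 0.74 FPKM in the controls and 0.46 and 0.65 FPKM in the others, the lowest level of all 37 genes, and was not tested.

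*Ehmt1* and *Ehmt2*, encoding GLP and G9a, form a heterodimer that dimethylates H3K9 in euchromatin. *Ehmt1* had 12.3 and 10.4 FPKM in the controls and 13.8 and 12.4 FPKM in those labelled Kdm6b-deficient, a log2 difference of 0.19 (SE 0.24, adjusted p = 0.851, limma). Both of the latter lay above both controls, narrowly so for the nearest pair, and the difference was 0.08 without control replicate 3, 0.12 without Kdm6b-deficient replicate 1 and 0.31 without control replicate 1. *Ehmt2* differed by 0.01 (SE 0.24) with overlapping groups, and its 2 libraries labelled Kdm6b-deficient lay between the controls. *Prdm2*, a PR domain protein with H3K9 methyltransferase activity, had 8.78 and 7.02 FPKM in the controls and 6.44 and 5.49 FPKM in the others. Its groups lay apart, with a log2 difference of −0.35 (SE 0.28, interval −1.05 to 0.35, adjusted p = 0.785, limma). *Setdb1*, which silences endogenous retroviruses and has been studied in T helper cells, differed by −0.14 (SE 0.27) and its groups overlapped.

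None of the 8 H3K9 demethylases passed the test. A log2 difference below 0 was found in 7 of them (in 1 of them after scaling to T cell genes). In 4 of the 8 (50%) both libraries labelled Kdm6b-deficient were below both controls, where 18.6% of all genes were. *Kdm3a*, which removes mono- and dimethylation of H3K9, was the most abundant, with 30.2 and 26.9 FPKM in the controls and 24.7 FPKM in both of the others. Its log2 difference of −0.20 (SE 0.19, interval −0.68 to 0.28) was larger than the difference between replicates in either group.

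*Kdm4a* and *Kdm4c* encode JmjC enzymes that remove trimethylation of H3K9 and H3K36. *Kdm4a* had 11.5 and 10.98 FPKM in the controls and 8.25 and 9.21 FPKM in the others, a log2 difference of −0.33 (SE 0.24, adjusted p = 0.776, limma). *Kdm4c* had 18.7 and 16.5 FPKM in the controls and 15.6 and 13.8 FPKM in the others, for a log2 difference of −0.24 (SE 0.22, adjusted p = 0.809, limma). In both genes the groups lay apart and differed by more than the replicates of either group did. The groups overlapped in *Kdm4b*, the third gene of this family, whose log2 difference was −0.12 (SE 0.29).

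*Phf2*, a demethylase of H3K9 dimethylation with a PHD finger, had the lowest mean of the group, with 3.23 and 2.15 FPKM in the controls and 2.06 and 1.76 FPKM in the others. Its groups did not overlap, but control replicate 3 was closer to the other group than to control replicate 1 (log2 difference −0.33, SE 0.33, −0.12 without control replicate 1 and −0.54 without control replicate 3). Its X-linked relative *Phf8* had 14.2 and 9.72 FPKM in the controls and 7.99 and 11.3 FPKM in the others, with overlapping groups and a log2 difference of −0.28 (SE 0.31). *Kdm7a*, the third member of that subfamily, was the single gene of the 8 with a positive difference, 0.06 (SE 0.34). *Kdm3b*, a paralog of *Kdm3a*, differed by −0.05 (SE 0.27).

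The H3K36 methyltransferases held the most positive log2 difference of all 35 genes. *Smyd2* (chromosome 1 of GRCm38, 189880492 to 189922495), which methylates H3K36 and also proteins such as p53, had 26.4 and 26.03 FPKM in the controls and 32.3 and 37.1 FPKM in those labelled Kdm6b-deficient. Its groups lay apart by more than either pair of replicates differed, and the log2 difference of 0.39 (SE 0.19, interval −0.09 to 0.86) did not pass the test (adjusted p = 0.755, limma). *Ash1l*, a dimethyltransferase of H3K36, had the lowest mean of the group, with 8.80 and 6.55 FPKM in the controls and 9.22 and 9.42 FPKM in the others. Its groups lay apart as well (log2 difference 0.26, SE 0.27), although the controls differed from each other by more than the groups did. The difference was 0.07 without control replicate 3 and 0.45 without control replicate 1, and 352 bases of its exons lie opposite those of *Dap3*.

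*Setd2*, the main writer of H3K36 trimethylation in transcribed genes, had 14.5 and 11.1 FPKM in the controls and 13.1 and 10.1 FPKM in the others. *Nsd1*, which places dimethylation, had 19.2 and 15.4 FPKM against 16.8 and 12.9 FPKM. In both genes replicate 3 was lower than replicate 1 by a like factor in the 2 groups, 0.765 and 0.768 for *Setd2* and 0.80 and 0.771 for *Nsd1*, and their log2 differences of −0.14 and −0.21 came with overlapping groups.

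The 3 H3K36 demethylases had log2 differences below 0 on the unscaled values and above 0 after scaling to T cell genes. In 2 of the 3 (66.7%) both libraries labelled Kdm6b-deficient were below both controls, where 18.6% of all genes were. *Kdm2a*, which removes H3K36 dimethylation and binds CpG islands, had 24.6 and 21.3 FPKM in the controls and 21.1 and 17.5 FPKM in the others (log2 difference −0.24, SE 0.22, adjusted p = 0.805, limma). Its nearest libraries, control replicate 3 and Kdm6b-deficient replicate 1, differed little. *Kdm8*, a JmjC gene that has been assigned H3K36 demethylase activity, had 6.16 and 6.20 FPKM against 5.56 and 5.46 FPKM. Its replicates were the closest of the group, and the log2 difference was −0.14 (SE 0.27). *Kdm2b*, the paralog of *Kdm2a* that recruits a Polycomb complex to CpG islands, ranged from 20.2 FPKM in control replicate 1 to 10.8 FPKM in Kdm6b-deficient replicate 3, with overlapping groups and a log2 difference of −0.27 (SE 0.34).

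*Dot1l* (chromosome 10, 80755101 to 80795461), the sole H3K79 methyltransferase, which has been studied in CD8 T cell differentiation, had the most negative log2 difference of all 35 genes. It had 24.2 and 16.4 FPKM in the controls and 15.0 and 12.8 FPKM in those labelled Kdm6b-deficient. Both of the latter lay below both controls, but control replicate 3 was nearer to Kdm6b-deficient replicate 1 than to control replicate 1. The log2 difference was −0.50 (SE 0.27, interval −1.18 to 0.18, adjusted p = 0.755, limma), about as large as the difference of −0.54 between the controls themselves.

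The most abundant transcripts belonged to 3 genes whose activity on histone lysines is absent or disputed. *Smyd3*, which methylates cytoplasmic proteins and has been assigned H3K4 activity, had 64.5 and 66.2 FPKM in the controls and 79.1 and 48.3 FPKM in the others. Its libraries labelled Kdm6b-deficient lay on either side of the controls (log2 difference −0.08, SE 0.27). *Kmt2e*, a KMT2 family gene without known methyltransferase activity, ranged from 38.5 FPKM in Kdm6b-deficient replicate 3 to 61.4 FPKM in Kdm6b-deficient replicate 1, so its widest gap lay within a group (log2 difference −0.16, SE 0.28). *Jmjd6*, a lysyl hydroxylase of splicing factors, had 50.7 and 41.2 FPKM in the controls and 58.3 and 53.3 FPKM in the others. Its groups lay apart, with a log2 difference of 0.28 (SE 0.19, interval −0.20 to 0.76, adjusted p = 0.765, limma) that was 0.13 without control replicate 3 and 0.43 without control replicate 1, and 172 bases of its exons lie opposite those of *Mettl23*.

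**Figure D2:**
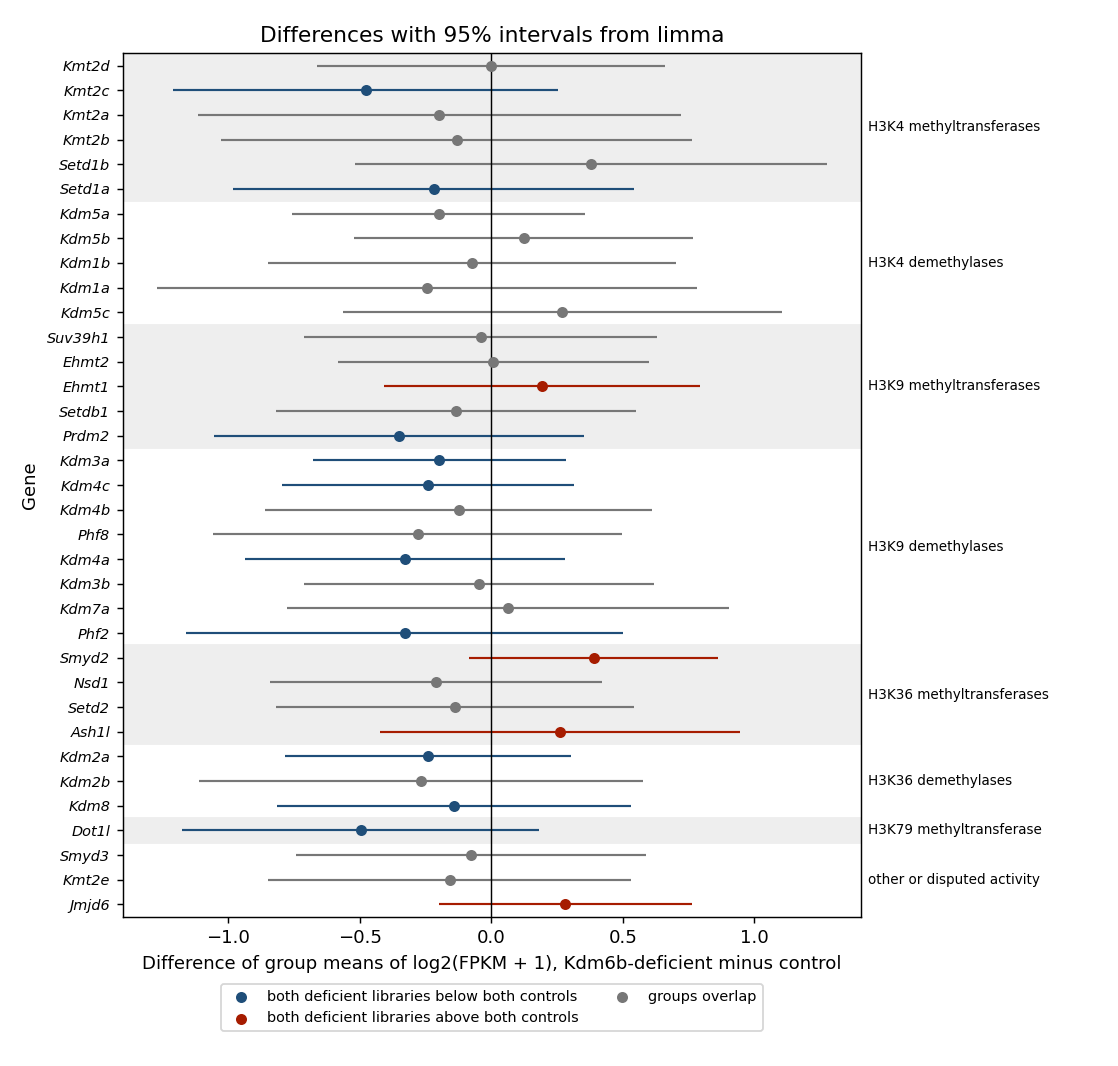
Log2 difference of each of the 35 genes tested, Kdm6b-deficient minus control, with its 95% interval from limma, grouped by histone lysine. Blue points mark genes with both Kdm6b-deficient libraries below both controls, red points the reverse and grey points overlapping groups, and every interval holds 0.

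Over all 35 genes tested, 26 had a log2 difference below 0 and the median was −0.14, beside a median of 0.00 over all genes tested. By the limma test 0 of the 35 had an adjusted p under 0.05 (0% of all 12009 genes), and 0 had an unadjusted p under 0.05 (5.35% of all genes, 642). None had a log2 difference above 1 (6.2% of all genes) or below −1 (0.441% of all genes). Both libraries labelled Kdm6b-deficient were below both controls in 10 of the 35, or 28.6%, where 18.6% of all genes were. They were above both controls in 4 of the 35, or 11.4%, where 18.4% of all genes were.

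The intervals, on the unscaled values, set the size of change in FPKM that these libraries could have left unseen. Scaling to T cell genes moved the median of the 35 genes from −0.14 to 0.21, so the intervals do not bound the change relative to T cell transcripts. Each of the 35 intervals held 0. In 24 genes the interval stayed between −1 and 1, and in the other 11 a difference of that size lay within the interval on 1 side. The lower side was open in 9 of them, *Kmt2c*, *Dot1l*, *Kdm1a* and *Phf2* among them, and the upper side in *Setd1b* and *Kdm5c*. Counting error in the library with a gene's lowest value was estimated at 1.63% to 19.1% of the level, with a median of 3.92%, and the largest belonged to *Suv39h2*.

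The difference between the groups was set beside that between replicates. Over the 35 genes, the median absolute log2 difference between control and Kdm6b-deficient was 0.20, between the 2 controls 0.32 and between the 2 libraries labelled Kdm6b-deficient 0.22. A difference between means of 2 libraries varies less than one between single libraries, so these values are not on equal terms. The group difference was larger than both replicate differences in 7 genes, *Kdm3a*, *Kdm4a*, *Kdm4c*, *Kdm8*, *Kmt2c*, *Prdm2* and *Smyd2*, which is 20% of the 35 and 23.9% of all genes. The FPKM of the 37 genes summed to 612.6 and 528.1 in the controls and 589.7 and 498.4 in the others (exact two-sided permutation p = 0.667). The sum was thus lower in replicate 3 of each group than in either replicate 1.

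The libraries at the ends of the range were the same in all T cell markers examined and in a minority of these genes. Of the 35 genes, 13 (37.1%) were highest in control replicate 1 and lowest in Kdm6b-deficient replicate 3, as were 8 of the 8 T cell markers and 18.1% of all genes. The geometric mean of the 37 genes relative to control replicate 1 was 0.834 in control replicate 3, 0.897 in Kdm6b-deficient replicate 1 and 0.795 in Kdm6b-deficient replicate 3. The part of the mixture of cells in the log2 differences was not tested.

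**Figure D3:**
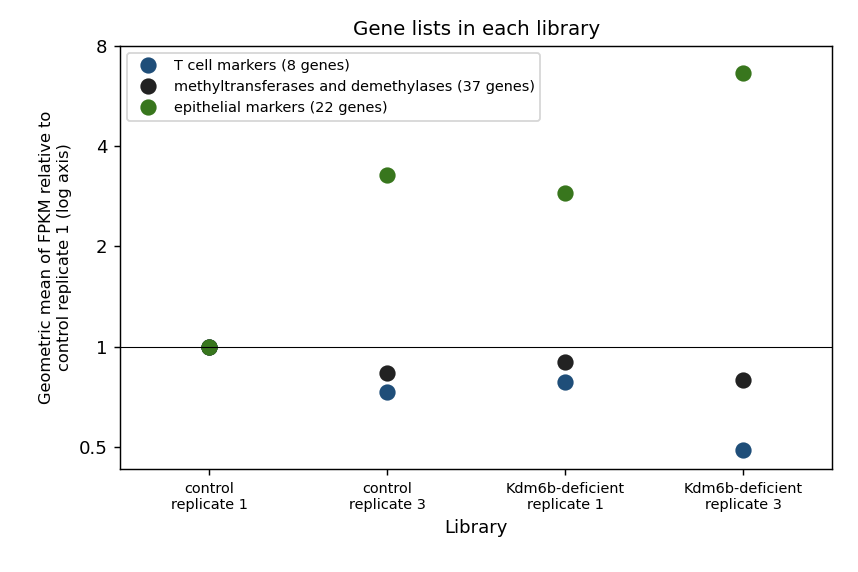
Geometric mean of FPKM in each library relative to control replicate 1 (log axis) for the 8 T cell markers, the 37 methyltransferase and demethylase genes and the 22 epithelial markers. The 37 genes lay between 0.795 and 1, the T cell markers between 0.489 and 1 and the epithelial markers between 1 and 6.64.

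When every library was divided by the geometric mean of *Cd3d*, *Cd3e*, *Cd3g* and *Ptprc*, the median of all genes moved from 0.00 to 0.36, and the median of the 35 genes from −0.14 to 0.21. Relative to T cell transcripts 31 of the 35 were therefore above 0. Relative to the median of all genes, 26 of the 35 stood below on either scale, with medians of −0.14 unscaled and −0.15 scaled. The scaling shifts all genes by similar amounts, so that this standing was largely fixed beforehand. Of the 10 genes with both libraries labelled Kdm6b-deficient below both controls, 4 kept a negative value after this scaling, namely *Dot1l* (−0.13), *Kmt2c* (−0.13), *Phf2* (−0.05) and *Prdm2* (−0.01). The other 6 changed sign, *Kdm2a*, *Kdm3a*, *Kdm4a*, *Kdm4c*, *Kdm8* and *Setd1a*, which followed mostly from the size of their unscaled differences. All 10 stayed below the median of all genes, as the similar shift of all genes would have it. *Smyd2* (0.77), *Jmjd6* (0.67), *Ash1l* (0.62) and *Ehmt1* (0.56) were above that median.

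**Figure D4:**
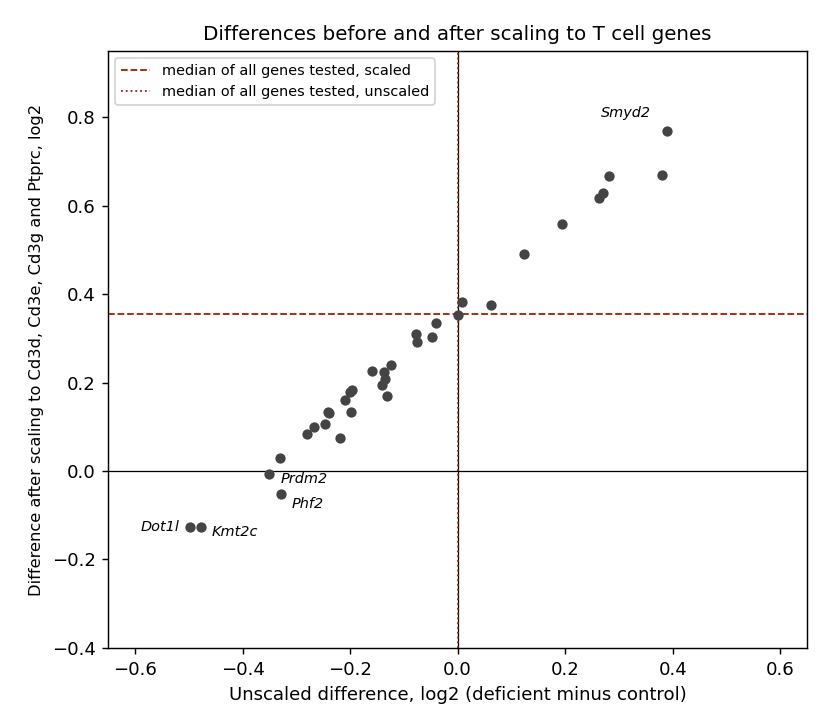
Log2 difference of each of the 35 genes on the unscaled values (horizontal axis) and after scaling the libraries to Cd3d, Cd3e, Cd3g and Ptprc (vertical axis). Dashed and dotted red lines mark the median of all genes tested on each scale, 0.36 and 0.00, and 4 genes stay below 0 on both.

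Control replicate 3 and Kdm6b-deficient replicate 1 have similar levels of T cell and epithelial markers, and this pair was compared after the values had been seen. Other markers of the pair were not alike. Relative to control replicate 1, the geometric mean of the cell cycle genes was 1.39 in control replicate 3 and 1 in Kdm6b-deficient replicate 1, and that of the Y-linked genes 2.04 and 1.23. In the same order *Cd4* had 10.1 and 30.5 FPKM, and the myeloid genes *Cd68* and *Lyz2* had 21.1 and 45.9 FPKM and 253 and 396 FPKM. Between them the median log2 difference of the 35 genes was 0.12, beside 0.00 over all genes. The 10 genes lower in both libraries labelled Kdm6b-deficient differed by −0.37 to −0.02 in this pair, and the 4 higher ones by 0.30 to 0.49, directions that the choice of those genes fixes. *Dot1l* differed by −0.12 and *Kmt2c* by −0.14, against −0.50 and −0.48 over all libraries, and *Smyd2* by 0.30.

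These enzymes have long transcripts, which bears on how they are measured. The longest coding transcript of the 37 genes had a median of 6449 bases, beside 2984 over the 11272 tested genes with a length. Over all genes, the median log2 difference went from 0.13 for transcripts up to 1000 bases to −0.05 between 4000 and 8000 bases and −0.07 above 8000 bases. The 18 members of the class between 4000 and 8000 bases had a median of −0.18, and the 12 above 8000 bases one of −0.13. Of the 4 genes higher in both libraries labelled Kdm6b-deficient, *Jmjd6* and *Smyd2* have the shortest transcripts of the 37, with 1668 and 1680 bases. The other 2, *Ash1l* and *Ehmt1*, have 11644 and 5953 bases. The part of transcript length in the differences was not tested. Exons of 8 of the 37 genes, *Jmjd6*, *Ash1l* and *Kmt2e* among them, share 75 to 972 bases with a coding gene on the opposite strand, and reads there cannot be assigned without strand.

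The partners of these enzymes were examined as lists of their own, with related genes outside the 37, together 63 genes of which 59 were tested. None had an adjusted p under 0.05 in limma (0 genes), 2 had an unadjusted p under 0.05 (5.35% of all genes did), and 41 had a log2 difference below 0, with a median of −0.09, while 54 were above 0 after scaling to T cell genes, as were 10358 of all 12009 genes. Both libraries labelled Kdm6b-deficient were below both controls in 22% of them and above both in 13.6%, beside 18.6% and 18.4% of all genes. Among 12 subunits of the COMPASS complexes 10 were below 0, and 4 had their libraries labelled Kdm6b-deficient below both controls and 2 above. Of 9 LSD1 and CoREST partners tested, 4 were below 0, while *Rcor3*, *Hdac2* and *Hmg20b* lay above both controls and *Hdac1* below both. The 10 partners and readers of H3K9 methylation included 7 below 0, and 1 of them, *Atf7ip*, the partner of SETDB1, had its groups apart. Of 6 DOT1L partners 4 were below 0, and *Aff1*, an elongation factor subunit, lay below both controls (log2 difference −0.41). Further lysine methyltransferases were below 0 in 10 of 14, and further JmjC genes in 6 of 8.

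The genes at the ends of these lists were *Ash2l*, *Setd6*, *Men1* and *Setmar*. *Ash2l* (chromosome 8 of GRCm38, 25816000 to 25847694), a core subunit that all COMPASS complexes need for activity, had 8.85 and 10.6 FPKM in the controls and 30.1 and 20.8 FPKM in those labelled Kdm6b-deficient. Both of the latter were above both controls by more than the replicates differed, with a log2 difference of 1.28 (SE 0.27, interval 0.60 to 1.96, adjusted p = 0.755, limma). *Setd6* (chromosome 8, 95715634 to 95721507), which methylates the NF-κB subunit RELA, had 5.59 and 5.20 FPKM in the controls. It had 13.01 and 12.9 FPKM in the others, for a log2 difference of 1.12 (SE 0.25, interval 0.50 to 1.75, adjusted p = 0.755, limma). Its replicates were close in both groups. These were the 2 genes of the 63 with an unadjusted p under 0.05, and both intervals lay above 0 before adjustment.

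*Men1*, encoding menin, the subunit that the KMT2A and KMT2B complexes share, had 14.5 and 5.19 FPKM in the controls and 7.96 and 2.28 FPKM in the others. Its log2 difference of −0.85 (SE 0.65) came with overlapping groups, since replicate 3 was 0.359 times replicate 1 in the controls and 0.286 times in the others, and it was −0.13 without Kdm6b-deficient replicate 3, −0.19 without control replicate 1, −1.58 without Kdm6b-deficient replicate 1 and −1.51 without control replicate 3. *Setmar*, a SET domain gene fused to a transposase in primates, had 3.32 and 2.79 FPKM against 1.18 and 2.69 FPKM. Its groups lay apart by little at the nearest pair, with a log2 difference of −0.51 (SE 0.38, adjusted p = 0.777, limma) that was −0.13 without Kdm6b-deficient replicate 1 and −0.89 without Kdm6b-deficient replicate 3.

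**Figure D5:**
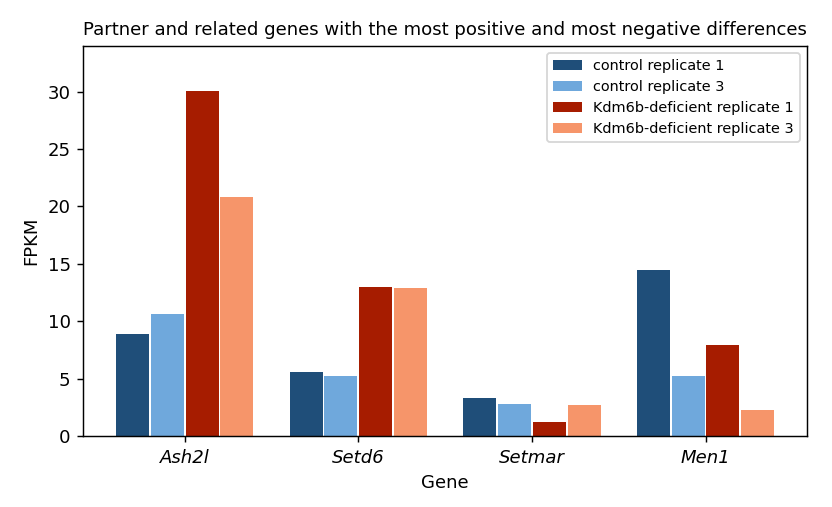
FPKM in each library of the 4 partner or related genes with the most positive and most negative log2 differences. Ash2l and Setd6 were above both controls in both Kdm6b-deficient libraries, whereas Men1 was lower in replicate 3 than in replicate 1 of each group.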

How the data were processed

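Per the labels and the study's methods, RNA of sorted cells was sequenced on HiSeq, mapped to mm10 and quantified with RSEM. The submitters' processing notes name Bowtie2 2.2.5, RSEM 1.2.8 and GRCm38.p5. The deposited values are FPKM, which the authors had scaled to transcript length and library. Annotation and strandedness are not given in the sources used here, so a gene and one overlapping it on the other strand could share reads. Depth had to be estimated from the steps between low FPKM values of genes with 1 transcript, after taking 150 bases off the length, an offset chosen after several had been seen. Counting errors rest on it, are approximate and cover counting only.

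Symbols and spans came from RefSeq (GRCm38.p6), which matched 18467 of 19339 identifiers, and transcript lengths and exon overlaps from GENCODE M21. A gene was kept if 2 or more libraries reached 1 FPKM. On log2(FPKM + 1), limma 3.58.1 in R 4.3.3 was run with lmFit and a trended eBayes, whose prior had 3.52 degrees of freedom. P-values were adjusted by Benjamini-Hochberg over all 12009 genes kept, with a threshold of 0.05. The study states in general that its experiments were repeated, but the sources used here do not say for the RNA-seq whether the pools of a group came from separate experiments, so p-values measure only the spread between these libraries. Tables were handled with pandas 2.3.3 in Python 3.11.15. On simulated data with planted changes and independent noise, the fit was checked only for returning the size of those changes.

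The 37 genes and all lists were chosen with earlier results of these data known. Named with values in every library are genes whose groups do not overlap, the highest and lowest mean of each group with at least 3 genes, untested genes, *Kdm6b*, and the 2 highest and 2 lowest differences among partners. Other genes given by library, the length classes, *Kdm5d* and *Ddx3y* beside *Kdm5c*, and the count of genes with the T cell markers' highest and lowest libraries were chosen after values were seen. Alternatives were a pseudocount of 0.1, no filter or one of 5 FPKM, scaling by median of ratios, scaling to Cd3 genes and *Ptprc*, quantile normalization, the replicate number as a block, limma without a trend and leaving out each library.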

Additional observations from a re-analysis of the deposited data

How the results depend on the processing

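No gene of the 37 had an adjusted p under 0.05 or a log2 difference past 1 under any alternative that was run. Over all genes, 0 were called in the fit as reported and under each alternative except the replicate number as a block, which called 1019. With that block 0 of the 35 were called, the smallest adjusted p among them being 0.173, and 2 had an unadjusted p under 0.05, *Dot1l* and *Smyd2*, while *Ash2l* had an adjusted p of 0.00738 and *Setd6* one of 0.0155 (limma). The markers *Gzmb* and *Klrd1*, not called without the block, had adjusted p of 0.0024 and 0.0017 with it (limma). The labels do not say that equal numbers mark shared pools, and with 2 pairs the correlation of 0.56 between the deviations of same-numbered libraries (Spearman 0.542, across genes) does not settle it.

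Scaling to Cd3 genes and *Ptprc* turned the median log2 difference of the 35 genes from −0.14 to 0.21 (all genes 0.36), the log2 ratio of the summed FPKM of all 37 from −0.07 to 0.33, and the differences of *Kdm2a* (0.13), *Kdm3a* (0.18), *Kdm4a* (0.030), *Kdm4c* (0.13), *Kdm8* (0.20) and *Setd1a* (0.075). Kdm6b-deficient replicate 1 against control replicate 3, chosen after the data were seen, gave 0.12 for the median (all genes 0.00) and 0.53 for *Men1*. Leaving out 1 library gave medians of −0.28 to −0.03, without control replicate 3 (−0.28) and without control replicate 1 (−0.03) at the ends, and −0.20 and −0.03 without Kdm6b-deficient replicates 1 and 3. It gave summed log2 ratios of −0.19 to 0.048, above 0 without Kdm6b-deficient replicate 3 (0.048) or control replicate 1 (0.043), and 22 to 26 genes with groups apart in place of 14, which fewer libraries make easier. The log2 difference ranged from −0.77 to −0.23 for *Dot1l*, −0.69 to −0.26 for *Kmt2c*, −0.49 to −0.21 for *Prdm2*, −0.33 to −0.11 for *Setd1a*, −0.28 to −0.11 for *Kdm3a* and −0.33 to −0.15 for *Kdm4c*, each nearest to 0 without control replicate 1 and farthest from it without control replicate 3. It ranged from −0.37 to −0.11 for *Kdm2a*, at its ends without Kdm6b-deficient replicate 1 (−0.37) and 3 (−0.11). Depth limits *Setd7* and *Suv39h2* most.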
